A study of Mus musculus with 6 samples.

Results

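The Gimap genes encode the GTPases of the immunity-associated protein family, and all 8 rows of the expression table whose names begin with Gimap (Gimap1, Gimap3, Gimap4, Gimap5, Gimap6, Gimap7, Gimap8 and Gimap9) were taken by name, out of 23420 rows. All 8 passed the filter on low values (a TPM of 1 or more in 3 or more of the 6 libraries, TPM being transcript abundance scaled by transcript length and library total), as did 10476 rows in all. The libraries were bulk RNA-seq of induced T (iT) cells regenerated in mice from embryonic stem cells, with 3 libraries of CD4 single-positive (CD4SP) and 3 of CD8 single-positive (CD8SP) iT cells, each made from 1000 sorted spleen cells. The comparison asked how the mature helper-type and killer-type T cells of this origin differ.

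Both populations came from the iR9-ESC line, of C57BL/6 background and CD45.2 type, which carries a doxycycline-inducible Runx1-p2a-Hoxa9 cassette in the Rosa26 locus. Doxycycline was used in culture, and the study states that the transplantation into recipients was done without doxycycline. Feeding of doxycycline is mentioned only for recipients whose gut and lung T cells were analysed. Both populations carry the cassette, so that no library comes from T cells without the cassette. Hematopoietic progenitors made from these cells were transplanted into irradiated B-NDG mice, 8 weeks old and CD45.1, an immunodeficient strain without T, B or NK cells of its own that keeps myeloid cells. Spleens were taken at week 5 after transplantation, and cells were sorted by a gate that included CD45.2+ Ter119- CD11b- and either CD4+ or CD8+. The study describes its libraries as biological replicates, but neither it nor the labels say whether the 3 libraries of a population came from separate mice, so the p-values measure only the spread between these libraries, part of which may be technical. The kind of recipient and the culture protocol are the same for both populations, but whether the same mice gave both is not stated. Natural T cells are not analysed here.

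Gimap proteins are small GTPases found mostly in lymphocytes, where they sit on lysosomes, endoplasmic reticulum, mitochondria or other inner membranes, or in the cytosol. They are best known for keeping resting T cells alive: rats and mice that lack Gimap5 lose most of their peripheral T cells, and loss of Gimap1 depletes mature T and B cells. Other members have been tied to T-cell death (Gimap4) and to autophagy (Gimap6). In the mouse the genes stand side by side in a single cluster.

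The sort was visible in the data. Cd4 lay between 279 and 331 TPM in the CD4SP libraries and at 0 to 0.104 TPM in the CD8SP libraries, Cd8a at 0.319 to 2.93 TPM against 1038 to 1161 TPM, and Cd8b1 at 24.3 to 36.0 TPM against 2197 to 2401 TPM. The T-cell markers Cd3e, Cd3d, Cd3g, Lck, Cd2 and Cd5 summed to 4789 to 5072 TPM in CD4SP and 3868 to 4361 TPM in CD8SP, and B-cell markers to at most 31.6 TPM, with Ms4a1 and Pax5 listed at 0 in every library. CD8SP replicates 1 and 2 were the closest pair, with an SD of the log2 difference between them of 0.35 over the tested genes, against 0.52 to 0.64 for the other pairs within a population. Over all tested genes the median log2 fold change was 0.28 towards CD4SP, and ribosomal protein genes took 24.1 to 28.7% of TPM in CD4SP against 32.2 to 35.9% in CD8SP, so each Gimap difference below is also given relative to that median. The files give TPM and not counts, so the depth behind each value is unknown.

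The Gimap genes were among the abundant transcripts of both populations. Their values ran from 56.7 TPM (Gimap8 in a CD8SP library) to 1278 TPM (Gimap6 in a CD8SP library), against a median of 17.6 TPM for a tested gene, and by mean level they ranked between place 128 (Gimap6) and place 1707 (Gimap8) of the tested genes. Summed over the 8 genes, the level was 3453, 3227 and 3795 TPM in the CD4SP libraries and 3642, 3695 and 3522 TPM in the CD8SP libraries. The sums overlapped, with means of 3492 ± 286 and 3619 ± 88.3 TPM (SD, n = 3 each), and an exact two-sided permutation test of their difference gave p = 0.6, where 3 libraries against 3 cannot go below 0.1. The family made up 0.35 ± 0.029% of all TPM in CD4SP and 0.363 ± 0.0089% in CD8SP (SD, n = 3). The difference of the sums, -128 TPM (CD4SP minus CD8SP), became -881 TPM when the libraries were rescaled by the median of gene ratios and -745 TPM when ribosomal protein genes were removed first, and without single libraries it lay between -279 (without CD4SP replicate 3) and 4.69 TPM (without CD4SP replicate 2), so that its direction rests on the latter library. In bulk libraries, fewer cells carrying a transcript and less of it per cell cannot be told apart.

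**Figure D1:**
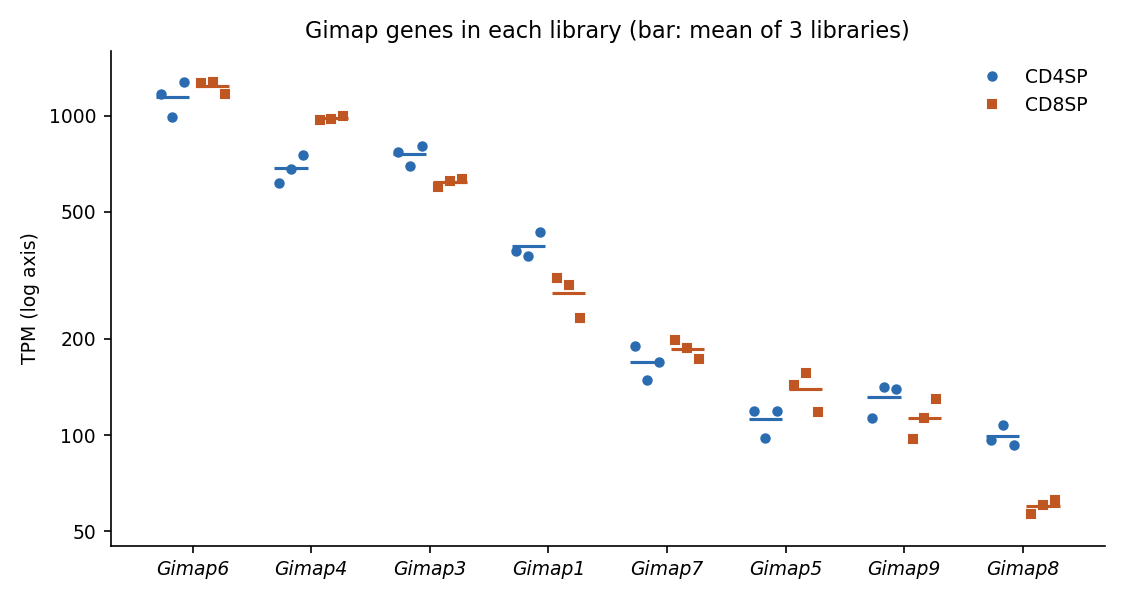
TPM (log axis) of each Gimap gene in every library, with CD4SP as circles, CD8SP as squares and a bar at the mean of 3 libraries. Gimap6 is highest and Gimap8 lowest in both populations, and the libraries of Gimap1, Gimap3, Gimap4 and Gimap8 do not overlap between populations.

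Because TPM is scaled by transcript length, the members can be set in order within a population. In CD4SP the order of mean TPM was Gimap6 (1145), Gimap3 (758), Gimap4 (686), Gimap1 (392), Gimap7 (169.4), Gimap9 (131), Gimap5 (112) and Gimap8 (99.0). In CD8SP it was Gimap6 (1239), Gimap4 (983), Gimap3 (619), Gimap1 (279), Gimap7 (187), Gimap5 (139), Gimap9 (113) and Gimap8 (59.9). Gimap3 and Gimap4 changed places between the populations, as did Gimap5 and Gimap9. The library ranges of Gimap3 and Gimap4 overlapped in CD4SP but not in CD8SP, those of Gimap9 and Gimap5 overlapped in both, and those of Gimap5 and Gimap8 overlapped in CD4SP, whereas all other neighbours in these orders were separate.

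No Gimap gene passed an adjusted p under 0.05 with a difference over 2-fold (0 of 8 by limma, against 9.73% of all tested genes, 7.92% higher in CD4SP and 1.8% higher in CD8SP). The study used these thresholds with DESeq2 for iT cells against natural T cells, so its own test is not repeated here. With the TPM as deposited, each 95% interval of the difference lay within 2-fold, and intervals under the other scalings were not compared with that limit. On the adjusted p alone 3 of 8 passed (background 20.8%): Gimap8 and Gimap1, higher in CD4SP (background in that direction 17.6%), and Gimap4, higher in CD8SP (background 3.23%). This split rested on the scaling. Median-of-ratios rescaling passed 4 members (Gimap4, Gimap5, Gimap6 and Gimap7), where 1666 of all 10476 tested genes passed. Quantile normalization passed 3 members (Gimap4, Gimap5 and Gimap7), where 1564 of 10476 passed. The members that passed under these scalings were all higher in CD8SP. On the deposited scale, 4 of 8 passed at an unadjusted p under 0.05 (background 37.1%), namely Gimap8, Gimap1, Gimap4 and Gimap3. For the same 4 genes the libraries of the populations did not overlap, 3 higher in CD4SP and 1 higher in CD8SP, where 43.2% of tested genes did not overlap (36.6% higher in CD4SP and 6.61% higher in CD8SP). The median log2 fold change of the members was 0.05, below the 0.28 of all tested genes. Under median-of-ratios rescaling it was again lower (-0.261 against 0), whereas under quantile normalization these medians were close (-0.023 and -0.015). The median absolute log2 fold change of the members, 0.30 as deposited, was close to the 0.29 of the 2639 genes with a mean of at least 50 TPM. Of those 2639 genes 5.84% were called.

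**Figure D2:**
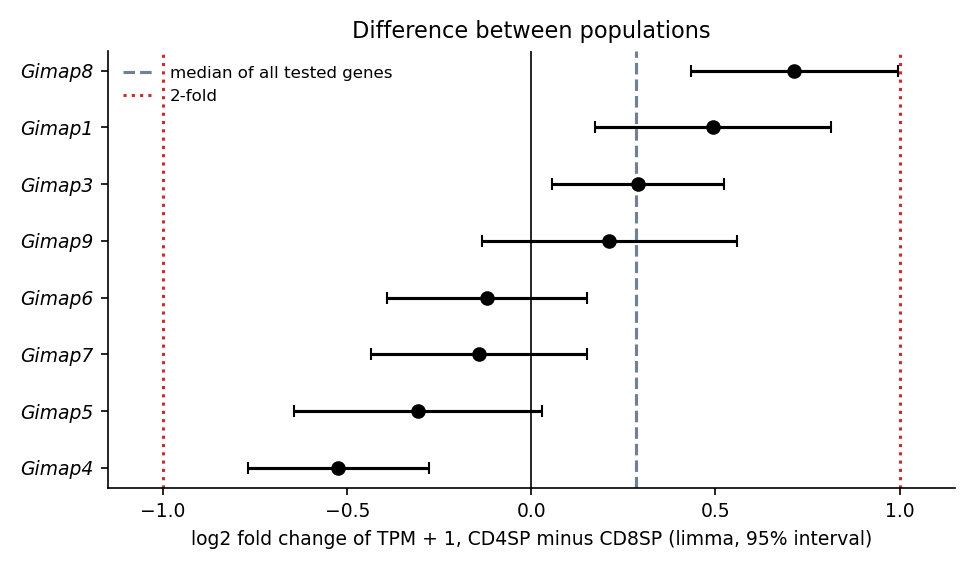
Log2 fold change of TPM + 1 (CD4SP minus CD8SP, limma) of each Gimap gene with its 95% interval; the dashed line is the median of all tested genes (0.28) and the dotted lines mark 2-fold. Gimap8 and Gimap1 lie on the CD4SP side and Gimap4 on the CD8SP side, and every interval stays inside the 2-fold lines.

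Gimap8, the largest protein of the family, with several GTP-binding domains in tandem, had the largest difference on the deposited scale, whereas relative to the median of all genes and under the other scalings that of Gimap4 was larger. It stood at 96.6, 107 and 93.2 TPM in the CD4SP libraries and at 56.7, 60.3 and 62.7 TPM in the CD8SP libraries. Every CD4SP library was above every CD8SP library. The means of 99.0 ± 7.29 and 59.9 ± 3.01 TPM (SD, n = 3) gave a log2 fold change of 0.71 (SE 0.12, 95% interval 0.433 to 0.995, limma adjusted p = 0.00573), or 1.64-fold higher in CD4SP, and 0.43 relative to the median of all genes. The adjusted p stayed under 0.05 without any single library, and passed the threshold under neither median-of-ratios rescaling (0.41, limma adjusted p = 0.101) nor quantile normalization (0.45, limma adjusted p = 0.0586).

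Gimap4, a GTPase whose loss slows the death of T cells, went the other way. It was listed at 618, 682 and 757 TPM in CD4SP and at 971, 981 and 997 TPM in CD8SP, the CD8SP libraries being both higher and closer together. The means were 686 ± 69.6 and 983 ± 13.1 TPM (SD, n = 3), and the log2 fold change was -0.52 (SE 0.11, 95% interval -0.77 to -0.28, limma adjusted p = 0.0115), or -0.81 relative to the median of all genes. The difference was larger under median-of-ratios rescaling (-0.83, SE 0.127, limma adjusted p = 0.00458). The adjusted p rose to 0.0541 without CD8SP replicate 1, to 0.0544 without CD8SP replicate 2 and to 0.0535 (limma) with those close libraries averaged, each time with a log2 fold change of -0.53.

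Gimap1, which is needed for the survival of mature lymphocytes, was at 377, 364 and 433 TPM in CD4SP and at 311, 294 and 232 TPM in CD8SP. The populations did not overlap, although CD8SP replicate 3 lay well below the other two CD8SP libraries. The means of 392 ± 36.7 and 279 ± 41.6 TPM (SD, n = 3) differed by a log2 fold change of 0.49 (SE 0.14, 95% interval 0.17 to 0.81, limma adjusted p = 0.0397), 0.21 above the median of all genes. The adjusted p was under 0.05 in 5 of 17 alternatives: it was 0.318 after median-of-ratios rescaling (0.19) and 0.08 in limma with the replicate number as a block, and 0.08, 0.128, 0.0632, 0.0856 and 0.0972 without CD4SP replicate 1, CD4SP replicate 3, CD8SP replicate 1, CD8SP replicate 2 and CD8SP replicate 3. An antisense gene, Gimap1os, overlaps Gimap1 and the sources do not say that reads were counted by strand, so reads from both cannot be told apart.

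Gimap3 and Gimap5 are near neighbours whose proteins bind members of the Bcl-2 family, and Gimap5 is the member whose loss costs T cells most. Over 720 bases of their coding sequences the transcripts are 97.9% identical, with 15 mismatches, and 9.45% of the 50-base words of Gimap3 and 9.98% of those of Gimap5 occur in another gene of the table. The stretch lies within a single exon of each gene, at chr6:48765209-48765928 (minus strand) for Gimap3 and chr6:48752576-48753295 (plus strand) for Gimap5 in GRCm38. A part of the stretch shows how few bases distinguish reads of these genes: 90 bases are printed here, 5′ to 3′ on the gene's strand from the GENCODE transcripts, with the 3 mismatched bases in capitals, from chr6:48765821-48765910 and chr6:48752594-48752683.
Gimap3: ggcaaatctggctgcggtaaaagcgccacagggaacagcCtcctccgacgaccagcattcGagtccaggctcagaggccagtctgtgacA
Gimap5: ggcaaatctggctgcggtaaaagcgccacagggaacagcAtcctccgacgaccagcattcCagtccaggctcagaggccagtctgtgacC

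Gimap3 stood at 770, 696 and 807 TPM in CD4SP and at 599, 624 and 635 TPM in CD8SP. The populations did not overlap, and the log2 fold change was 0.29 (SE 0.10, 95% interval 0.06 to 0.52, limma adjusted p = 0.0774), equal to the median of all genes within 0.005. Gimap5 stood at 119, 97.8 and 119 TPM in CD4SP and at 143, 156 and 118 TPM in CD8SP, where the third CD8SP library fell inside the CD4SP range. Its log2 fold change was -0.31 (SE 0.15, 95% interval -0.64 to 0.03, limma adjusted p = 0.167), or -0.59 relative to all genes. How reads were split between these genes was not stated, so their separate values are uncertain; summed, the pair was at 889, 794 and 926 TPM in CD4SP and at 742, 780 and 753 TPM in CD8SP, with a log2 fold change of 0.195 (SE 0.10, 95% interval -0.04 to 0.43, limma adjusted p = 0.202), a sum added after the data were seen. Gimap5 passed the adjusted p under median-of-ratios rescaling (-0.61), quantile normalization (-0.53) and removal of ribosomal protein genes (-0.47), and Gimap3 turned to -0.02 under median-of-ratios rescaling and passed without CD4SP replicate 2 (0.35, limma adjusted p = 0.0209) and with library weights (0.35, limma adjusted p = 0.0085).

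Gimap6, Gimap7 and Gimap9 overlapped between the populations. Gimap6, which binds the autophagy protein Gabarapl2, was the most abundant member, at 1171, 989 and 1276 TPM in CD4SP and at 1265, 1278 and 1174 TPM in CD8SP (log2 fold change -0.12, 95% interval -0.39 to 0.15, limma adjusted p = 0.49). Gimap7, an active GTPase that dimerizes, was at 189.6, 149 and 169.7 TPM in CD4SP and at 199, 188 and 173 TPM in CD8SP (log2 fold change -0.14, 95% interval -0.44 to 0.15, limma adjusted p = 0.444). Gimap9 was at 113, 142 and 139 TPM in CD4SP and at 97.2, 113 and 129.5 TPM in CD8SP (log2 fold change 0.21, 95% interval -0.14 to 0.56, limma adjusted p = 0.339). Relative to the median of all genes these differences were -0.405, -0.43 and -0.07. The direction of Gimap9 depended on the scaling (-0.09 under median-of-ratios and -0.007 under quantile normalization), and under median-of-ratios rescaling Gimap6 (-0.43) and Gimap7 (-0.45) passed the adjusted p in the direction of CD8SP, as did Gimap7 under quantile normalization (-0.36, limma adjusted p = 0.0414).

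Shares within a library do not depend on a scaling by 1 factor per library (quantile normalization is not of this kind and was not applied to shares), so the make-up of the Gimap transcripts was compared next. Gimap4 supplied 17.9, 21.1 and 19.9% of the summed Gimap TPM in the CD4SP libraries and 26.7, 26.55 and 28.3% in the CD8SP libraries, a difference of -7.52 percentage points. Gimap3 supplied 21.7 ± 0.523% in CD4SP and 17.1 ± 0.82% in CD8SP (SD, n = 3), and Gimap1 11.2 ± 0.259% and 7.70 ± 1.003%. Gimap8 supplied 2.86 ± 0.436% and 1.66 ± 0.113% (SD, n = 3). The libraries of the populations did not overlap in these 4 shares, with Gimap4 the larger part of the pool in CD8SP and the other three the larger part in CD4SP. The exact two-sided permutation test gave 0.1 for each, the smallest value it can give, and 0.2 after Benjamini-Hochberg adjustment over the 8 genes, so this test cannot bring a share under 0.05 with 3 libraries against 3. Gimap6 held 32.7 ± 1.82% and 34.2 ± 0.77%, and its share overlapped, as did those of Gimap5, Gimap7 and Gimap9. Rescaling a library by a factor cannot change a share, and leaving out single libraries kept the differences of all 8 shares within the spread between replicates. The differences of the overlapping shares moved more for their size, to between -0.872 and -0.44 percentage points for Gimap5, -2.09 and -0.45 for Gimap6, -0.609 and -0.0989 for Gimap7 and 0.33 and 0.907 for Gimap9; the smallest for Gimap6 and Gimap9 came without CD4SP replicate 2 and that for Gimap7 without CD4SP replicate 3.

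**Figure D3:**
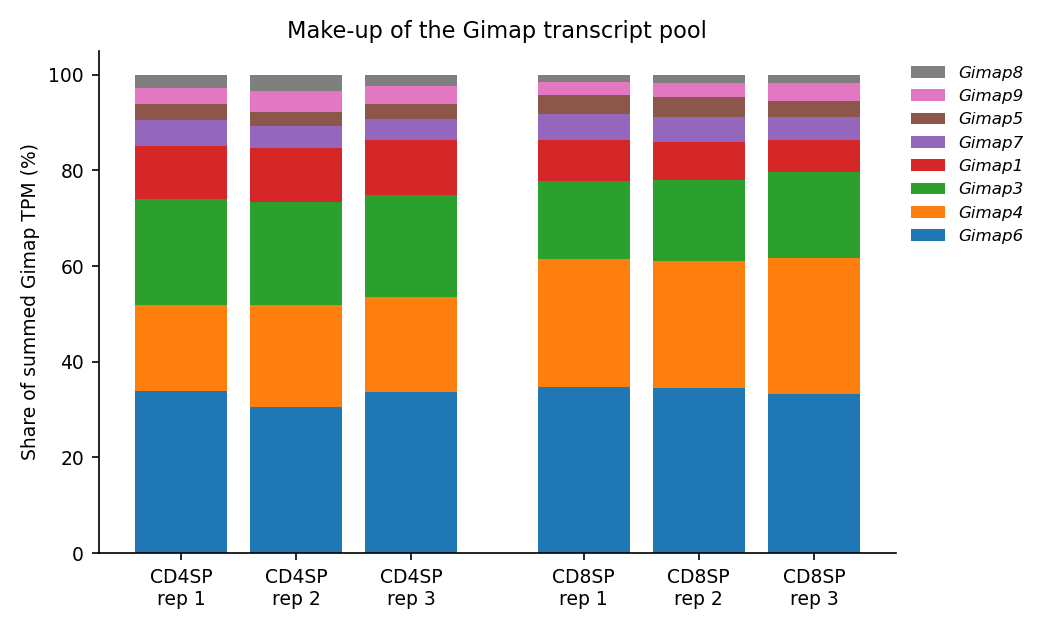
Share (%) of each Gimap gene in the summed Gimap TPM of every library, stacked to 100%. Gimap4 (orange) fills 26.55 to 28.3% of the CD8SP libraries and 17.9 to 21.1% of the CD4SP libraries, and Gimap6 (blue) 30.6 to 34.7% of each of the 6 libraries.

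Ratios between members are likewise unchanged by 1 factor per library, and restate the levels of the same 8 genes. Of the 28 pairs of members, 17 had ratios that did not overlap between populations, each with an exact permutation p of 0.1 and an adjusted value of 0.165 at best. The share among pairs of other genes was not computed, so this count has no background. Of single tested genes, 43.2% did not overlap. The largest difference, chosen after the values were seen, was that of Gimap4 over Gimap8: 6.39, 6.37 and 8.12 in CD4SP and 17.1, 16.3 and 15.9 in CD8SP. Each CD8SP library thus held at least 15.9 Gimap4 transcripts per Gimap8 transcript and no CD4SP library more than 8.12. Gimap3 exceeded Gimap4 in every CD4SP library (ratios of 1.25, 1.02 and 1.07) and lay below it in every CD8SP library (0.616, 0.636 and 0.637). The pair that differed least was Gimap6 over Gimap7, at 6.18, 6.64 and 7.52 in CD4SP and 6.37, 6.80 and 6.78 in CD8SP. The transcripts of Gimap4 and Gimap8 share no 50-base word with any other annotated gene.

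The promoters of the 4 genes whose libraries did not overlap are shown because their genes differed in opposite directions within a single cluster. Each is the 250 bases before the start of the RefSeq transcript (GRCm38.p6), 5′ to 3′ on the strand of the gene, and capitals mark a motif. They lie at chr6:48646984-48647233 (plus strand, Gimap8), chr6:48738797-48739046 (plus strand, Gimap1), chr6:48770852-48771101 (minus strand, Gimap3) and chr6:48684328-48684577 (plus strand, Gimap4).
Gimap8 promoter: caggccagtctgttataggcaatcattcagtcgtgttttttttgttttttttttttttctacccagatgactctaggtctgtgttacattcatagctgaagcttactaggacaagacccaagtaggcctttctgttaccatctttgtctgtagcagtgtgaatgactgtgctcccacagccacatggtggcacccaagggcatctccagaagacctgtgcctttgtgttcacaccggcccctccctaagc
Gimap1 promoter: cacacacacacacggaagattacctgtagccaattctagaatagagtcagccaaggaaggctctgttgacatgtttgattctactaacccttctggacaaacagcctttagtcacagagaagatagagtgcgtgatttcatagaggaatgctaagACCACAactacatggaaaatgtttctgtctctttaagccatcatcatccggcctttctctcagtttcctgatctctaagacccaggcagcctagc
Gimap3 promoter: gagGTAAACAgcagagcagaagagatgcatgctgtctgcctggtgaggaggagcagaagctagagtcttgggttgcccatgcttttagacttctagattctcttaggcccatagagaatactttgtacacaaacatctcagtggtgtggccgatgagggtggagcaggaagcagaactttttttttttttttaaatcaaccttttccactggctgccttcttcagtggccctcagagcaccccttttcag
Gimap4 promoter: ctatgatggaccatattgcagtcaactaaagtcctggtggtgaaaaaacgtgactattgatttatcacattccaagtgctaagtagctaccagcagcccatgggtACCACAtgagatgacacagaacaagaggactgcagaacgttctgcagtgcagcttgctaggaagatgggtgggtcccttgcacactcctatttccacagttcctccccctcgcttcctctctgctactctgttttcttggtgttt

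Short motifs of 6 transcription factor families of T cells were looked for on both strands of 300-base windows (250 bases before to 50 after a start), 9 windows for the 8 genes since Gimap8 has a pair that overlap. The RUNX letters TGTGGT were found in 3 of the 9, those of Gimap1, Gimap4 and Gimap7, and in 16.8% of all 32851 windows. Gimap1, higher in CD4SP, and Gimap4, higher in CD8SP, thus both carry them, at bases 156 and 106 counted from the 5′ end, as the reverse complement, which is the part in capitals above. The forkhead letters GTAAACA were found at base 4 of the Gimap3 window and in 3.65% of all windows. The letters for ETS (CCGGAAG, 8.86% of all windows), KLF (GGGTGTG, 7.95%), TCF/LEF (CTTTGAT, 3.73%) and CRE (TGACGTCA, 1.79%) were in none of the 9. The windows of the Gimap genes had 43.3 to 57.3% G and C, with a median of 48.0% against 52.7% for all windows. These matches describe the letters only.

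The 8 genes span 124 kb of chromosome 6, from chr6:48647234-48660875 (Gimap8) to chr6:48764464-48770851 (Gimap3) in GRCm38, with 6 on the plus strand and 2, Gimap6 and Gimap3, on the minus strand. In chromosome order they are Gimap8, Gimap9, Gimap4, Gimap6, Gimap7, Gimap1, Gimap5 and Gimap3, and the differences changed sign along this order: Gimap4 (chr6:48684549-48692060), higher in CD8SP, lies between Gimap8 and Gimap1 (chr6:48739054-48743795), which were higher in CD4SP. The remaining members lie at chr6:48676129-48679114 (Gimap9), chr6:48701582-48708225 (Gimap6), chr6:48718621-48724636 (Gimap7) and chr6:48746197-48754210 (Gimap5). A further annotated gene, Gm28053, runs over Gimap7, Gimap1 and Gimap5 on their strand and has no row of that name in the table, so reads from it may stand in theirs.

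Larger differences stood just outside the cluster. Tmem176b and Tmem176a, a pair of neighbouring membrane protein genes, were at 313 to 435 and 226 to 267 TPM in CD4SP and at 21.0 to 45.5 and 14.6 to 50.4 TPM in CD8SP, far apart in both cases. Their log2 fold changes were 3.48 (SE 0.27, limma adjusted p = 0.000119) and 2.85 (SE 0.40, limma adjusted p = 0.00224). On the other side, the zinc-finger genes Repin1 (0.59, limma adjusted p = 0.111) and Zfp775 (0.35, limma adjusted p = 0.318) did not pass, and the chemoattractant gene Rarres2 was listed at 0 in all 6 libraries. Of the 14 further table genes within 250 kb of the cluster, a window chosen after the data were seen, 7 were tested, and Zfp467 at 14.5 against 0.656 TPM (3.20, limma adjusted p = 0.000147) was called beside the Tmem176 pair (background 9.73%). No Gimap gene between these flanks passed 2-fold.

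**Figure D4:**
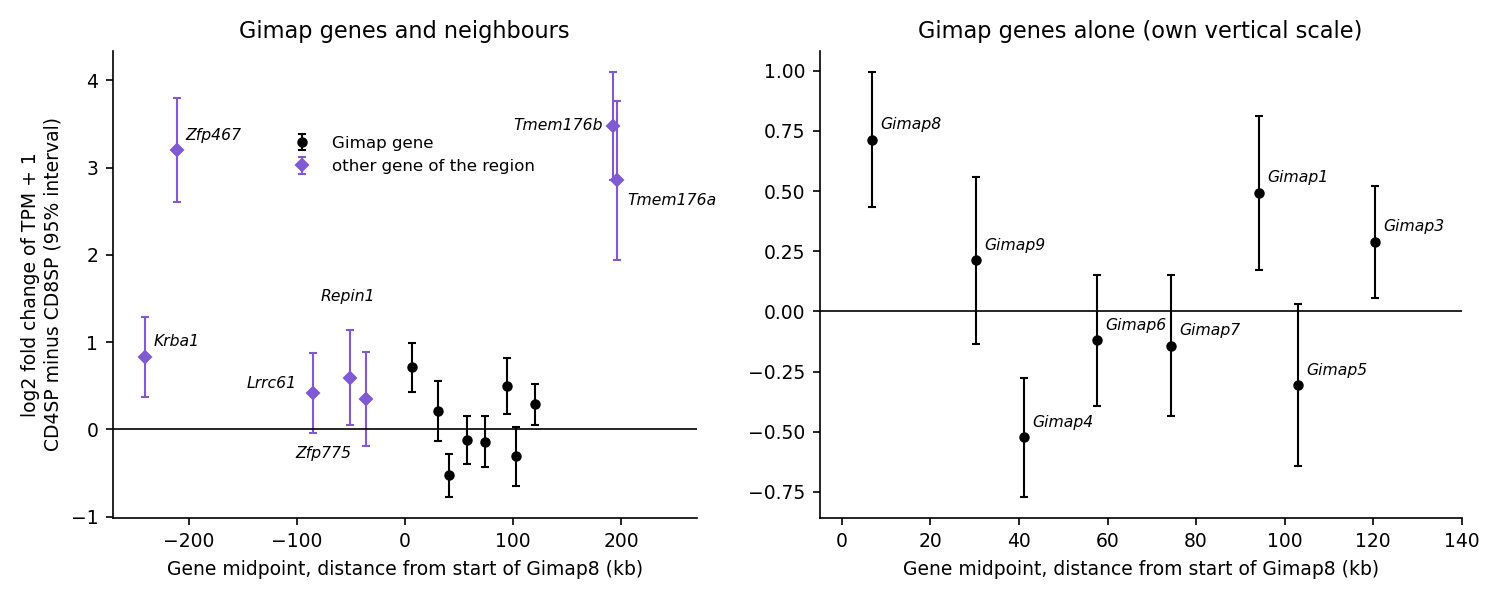
Log2 fold change of TPM + 1 (CD4SP minus CD8SP, limma, 95% interval) against distance from the start of Gimap8 in kb, for the Gimap genes with the other tested genes of the region (left) and for the Gimap genes alone on their own scale (right). Tmem176a, Tmem176b and Zfp467 lie between 2.85 and 3.48, while the Gimap genes stay between -0.52 and 0.71 on both sides of 0 along the cluster.

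Genes of pathways that Gimap proteins are tied to were counted in the same fit. Among 10 genes of the Bcl-2 family, 1 was called in each direction, against backgrounds of 7.92% (towards CD4SP) and 1.8% (towards CD8SP). Bcl2, which protects resting T cells from death, was at 96.3, 117 and 99.7 TPM in CD4SP and at 218, 236 and 191 TPM in CD8SP (log2 fold change -1.035, SE 0.13, limma adjusted p = 0.00153). Bcl2a1b, a protective relative, was at 220.4, 260.1 and 266 TPM in CD4SP and at 113, 104.5 and 131 TPM in CD8SP (log2 fold change 1.095, SE 0.13, limma adjusted p = 0.0012). On the adjusted p alone Mcl1 (0.615), also protective, passed in the direction of CD4SP, and Bcl2l11 (-0.95), the death-promoting Bim, in that of CD8SP. The median log2 fold change of the list was -0.14. Bcl2 fell just short of 2-fold without CD4SP replicate 1 (-0.98) or CD8SP replicate 2 (-0.96), as did Bcl2a1b under the 3 other scalings (0.79 to 0.94), where Bcl2l11 exceeded it (-1.12 to -1.27), and Bcl2l11 also exceeded it without CD4SP replicate 1 (-1.002) or CD8SP replicate 3 (-1.13). The Bcl2a1 genes are near-identical copies, so the value of Bcl2a1b is uncertain.

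None of 12 autophagy genes was called at 2-fold by limma (background 9.73%), and 5 had an unadjusted p under 0.05 (background 37.1%). The same 5 passed the adjusted p alone, all higher in CD4SP (background 17.6%): Map1lc3b, Gabarap, Gabarapl2, Ulk1 and Sqstm1. Gabarapl2, the partner of Gimap6, stood at 234, 234 and 271 TPM in CD4SP and at 147, 156 and 184 TPM in CD8SP (log2 fold change 0.605, limma adjusted p = 0.0135), apart in every library where Gimap6 itself overlapped. Map1lc3b, the most abundant of the list, was at 352 ± 14.9 and 254.5 ± 25.4 TPM (SD, n = 3; log2 fold change 0.47, limma adjusted p = 0.0239), and Gabarap at 246 ± 22.2 and 182 ± 7.08 TPM (SD, n = 3; 0.43, limma adjusted p = 0.0305). The median of the list was 0.34, near the 0.28 of all genes.

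Gimap5 has been linked to the kinase GSK3 in activated T cells. Of 8 genes of that pathway and its NFAT targets, Nfatc1 was called (background 9.73%) and 5 had an unadjusted p under 0.05 (background 37.1%). Nfatc1 was at 73.8, 37.3 and 69.8 TPM in CD4SP and at 22.7, 26.2 and 17.3 TPM in CD8SP (log2 fold change 1.37, limma adjusted p = 0.0106), and the others, Gsk3a and Gsk3b included, did not pass the adjusted p. Of 13 genes of resting and recirculating T cells none was called at 2-fold by limma (background 9.73%) and 9 had an unadjusted p under 0.05 (background 37.1%), while 5 were past the adjusted p higher in CD4SP (background 17.6%; S1pr1, Klf2, Foxo1, Btg1 and Btg2). The median log2 fold change was 0.545 for the GSK3 list and 0.295 for the resting T-cell list. Il7r, the receptor of a survival cytokine, was at 388 ± 48.5 and 309.5 ± 35.7 TPM (SD, n = 3; 0.32, limma adjusted p = 0.124), and the antiproliferative Btg1 at 408 ± 35.0 and 275 ± 8.40 TPM (SD, n = 3; 0.56, limma adjusted p = 0.00911).

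The interferon-inducible GTPases, another family of immune GTP-binding proteins, were counted beside the Gimap genes. Of 16 such genes 14 were tested, 5 were called at 2-fold and 8 passed the adjusted p, all higher in CD4SP (background 7.92% and 17.6%), and the median log2 fold change was 0.87. Iigp1 was at 41.6, 38.2 and 39.1 TPM in CD4SP and at 4.71, 3.95 and 4.47 TPM in CD8SP (log2 fold change 2.92, limma adjusted p = 2.38e-05). Irgm2 (1.62), Gbp6 (1.30) and Gbp3 (1.24) followed, with Igtp (1.23) the last of the called genes. Under median-of-ratios rescaling 2 genes of the list were called, Gbp3 (0.94), Gbp6 (0.998) and Igtp (0.92) falling short of 2-fold, and leaving out single libraries gave 5 or 6. Members of both the Gbp and the Irg families have near-identical copies, so their separate values are uncertain. The differences between the lists were not tested.

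Markers of other cells moved with the populations. Markers shared by NK cells and killer T cells summed to 1922 to 2125 TPM in CD4SP and 7007 to 7394 TPM in CD8SP, with 1 of 8 higher in CD4SP and the NK-defining Ncr1 listed at 0 throughout. Nkg7, at a mean of 1877 TPM in CD4SP and 6696 TPM in CD8SP, made up most of these sums. The 7 markers of regulatory T cells, a CD4+ subset, summed to 2874 to 3249 TPM in CD4SP and 345 to 407 TPM in CD8SP, and all 7 had the higher mean in CD4SP. Foxp3, which defines them, was at 142, 6.56 and 167 TPM in the CD4SP libraries and at 7.48, 7.48 and 10.1 TPM in CD8SP. CD4SP replicate 2 was low in Foxp3. It was also the lowest CD4SP library, by less, in Ctla4 (814 TPM against 866 and 937.5), Ikzf2 (35.6 against 44.9 and 48.3), Tnfrsf18 (712.5 against 835 and 769) and Nrp1 (56.1 against 64.8 and 71.3), and lay between the others in Il2ra and Tnfrsf4. That library was the lowest CD4SP library in Gimap1, Gimap3, Gimap5, Gimap6 and Gimap7 and the highest in Gimap8 and Gimap9. Without it the log2 fold changes were 0.66 for Gimap8 (limma adjusted p = 0.00747), 0.54 for Gimap1 (limma adjusted p = 0.033) and -0.52 for Gimap4 (limma adjusted p = 0.014). The part of these cells in the Gimap differences was not tested. Myeloid markers summed to at most 35.9 TPM, with S100a8 and S100a9 at 0, and endothelial, erythroid and platelet markers to at most 7.35 TPM. Among the myeloid markers, the mean of Lyz2 was 22.1 TPM in CD4SP and 6.28 TPM in CD8SP, and that of Cd68 was 2.88 and 15.5 TPM.

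The genes whose profiles over the 6 libraries were most like the mean of the Gimap genes were, by root-mean-square distance of centred log2(TPM + 1) among 4873 candidates of at least 20 TPM, Smad3 (0.028), Cr1l (0.0304), Psd4 (0.0361), Nup210 (0.0363) and Tcf25 (0.0363). The median distance of a candidate was 0.233. All 5 were nearly level between the populations, with log2 fold changes of 0.06 to 0.12. Single Gimap genes stood farther from their own mean, from 0.116 (Gimap3) and 0.121 (Gimap6) to 0.309 (Gimap4) and 0.339 (Gimap8).

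The direction of some members depended on how the libraries were put on a common scale. Quantile normalization and median-of-ratios rescaling brought the median of all genes from 0.28 to -0.015 and 0, and lowered most members with it. Gimap4 stayed on the CD8SP side and Gimap1 and Gimap8 on the CD4SP side in all 17 alternatives. Gimap6 and Gimap7 kept a negative sign in the same 17 and Gimap5 in the 16 that kept it apart from Gimap3, whereas Gimap3 and Gimap9 crossed 0.

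**Figure D5:**
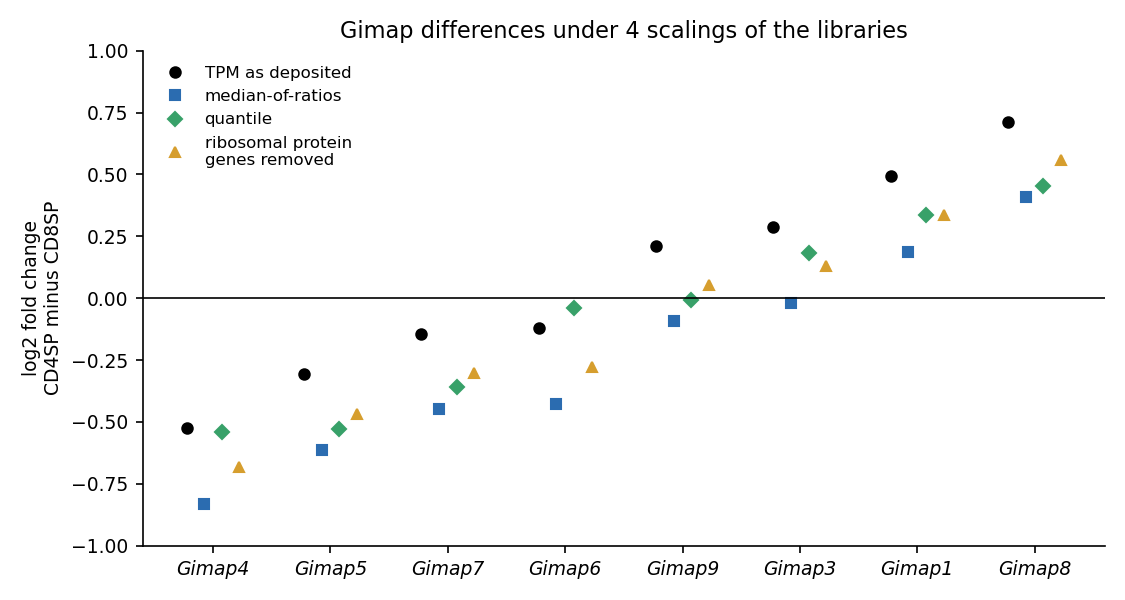
Log2 fold change (CD4SP minus CD8SP) of each Gimap gene with the TPM as deposited and under median-of-ratios rescaling, quantile normalization and removal of ribosomal protein genes. Most members shift towards CD8SP; Gimap4 reaches -0.83 and Gimap8 drops to 0.41 under median-of-ratios rescaling.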

How the data were processed

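Bulk RNA-seq of 3 CD4SP and 3 CD8SP iT-cell samples was analysed from the table of TPM values deposited by the authors. Per the methods of the study, cDNA of 1000 sorted cells was amplified (Discover-sc WTA kit), libraries were sequenced on a NextSeq instrument, reads were aligned with HISAT2 to mm10 and TPM was computed with StringTie; annotation, strand use and the handling of duplicates are not given in the sources used here. Amplification and unstated splitting of shared reads can change single values. The table holds 23420 rows, of which 9818 are 0 in every library and 27 carry dates in place of gene names and were left as they stand. TPM keeps no depth, so no count test or counting interval was possible.

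The 10476 genes that reached 1 TPM in 3 or more of the 6 libraries were fitted as log2(TPM + 1) with limma 3.58.1 (R 4.3.3; mean-variance trend, population as the only term). A fold change is thus on the log2(TPM + 1) scale. P-values were adjusted by Benjamini-Hochberg over all tested genes, and a gene was called at an adjusted p under 0.05 and a difference over 2-fold; positive values mean higher in CD4SP. Sums, shares and ratios were compared by exact permutation over the 20 assignments. Sequences came from RefSeq (GRCm38.p6) and GENCODE (GRCm38), and transcripts were compared with blastn 2.17.0. The scripts were tested on simulated data.

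The members and the gene lists were chosen with earlier results of these data known. Named are all Gimap genes, the sort genes, the flanking genes, up to 4 called genes of each list with the largest change (or the 2 most abundant where none was called) and the 5 genes of most similar profile; genes named beyond this were named after their values were seen. Alternatives were pseudocount, filter, scaling, trend, library weights, replicate block, averaging of CD8SP replicates 1 and 2, leaving out each library, and the call on the adjusted p alone; summing Gimap3 with Gimap5 was added after seeing the data. Some gene-level results and gate details are not reported here.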

Additional observations from a re-analysis of the deposited data

How the results depend on the processing

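The log2 fold changes of Gimap1, Gimap4 and Gimap8 kept their sign under all 17 alternatives, and their adjusted p (limma) stayed under 0.05 in 5, 14 and 15 of them. Values turned for Gimap3 (-0.019) and Gimap9 (-0.093) under median-of-ratios rescaling and for Gimap9 (-0.007) under quantile normalization. The difference of the summed Gimap TPM moved from -128 to -881 under median-of-ratios rescaling and to -745 without ribosomal protein genes. It lay between -279 and 4.69 without single libraries (4.69, its direction turned, without CD4SP replicate 2). The median Gimap log2 fold change moved from 0.046 to -0.261 under median-of-ratios rescaling and to -0.112 without ribosomal protein genes. It was -0.023 under quantile normalization and 0.195 with Gimap3 and Gimap5 summed. Counted on the adjusted p alone, the calls were 3 Gimap genes, 2183 genes in all, and 4 survival, 5 autophagy, 6 quiescence and 8 interferon-inducible GTPase genes, against 0, 1019, 2, 0, 0 and 5 with the 2-fold limit. With CD8SP replicates 1 and 2 averaged, 1 Gimap gene passed the adjusted p and 1 survival gene was called. Leaving out single libraries gave 1 (without CD8SP replicate 1 or 2) to 4 Gimap genes past the adjusted p, 1 to 3 survival genes called and 0 to 1 quiescence genes called. Median-of-ratios rescaling, quantile normalization and removal of ribosomal protein genes each gave 1 quiescence gene, and the first gave 2 interferon-inducible GTPases. The scalings moved the split of calls: 830 of 1019 called genes were higher in CD4SP with the TPM as deposited, 489 of 789 after median-of-ratios rescaling, 444 of 777 after quantile normalization and 680 of 936 without ribosomal protein genes. The adjusted p alone passed 2183 genes as deposited, 3866 with library weights, 3258 without CD4SP replicate 2, and between 1056 and 1308 without any other single library; 1104 with the averaged pair. The cause of these changes was not tested. The labels number the libraries of both populations 1 to 3, and same-numbered libraries did not deviate together (correlations of deviations of 0.0515, -0.0168 and 0.0887). With 3 libraries a population this cannot show whether same-numbered libraries came from the same mouse. The main fit did not use the numbers. Blocking on that number called 997 genes, and the adjusted p was 0.0211 for Gimap8, 0.0337 for Gimap4 and 0.08 for Gimap1 (limma). The depth is unknown, and 3 libraries a population limit every statement.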
